A study of Saccharomyces cerevisiae with 8 samples.

Results

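The comparison described here is that of yeast cells carrying glutamine in place of lysine at position 16 of histone H4 (H4K16Q) against the matching strain with unmutated H4 (WT H4). It was chosen by strain, as the 2 libraries of the H4K16Q mutant and the 2 libraries of WT H4, which are 4 of the 8 RNA-seq libraries of the study. The study asked how single substitutions in histones H3 and H4 alter chronological lifespan, and sequenced total RNA of mutant strains from cultures of 16 h, in late log phase in rich medium (YPD). Both strains share the JDY86 background, which is MATa, carries his3, leu2, lys2 (printed as K2 in the study's genotype), trp1, ura3 and met15 deletions, has HIS3 under the MFA1 promoter at can1, has the HHT1-HHF1 gene pair replaced by NatMX4, and has the HHT2-HHF2 locus replaced by a synthetic histone gene pair with URA3. The groups therefore differ by design only in the H4 residue. Each is 1 strain of a mutant library, and the replicates are biological samples prepared separately. The strain labels of the mutant libraries read H3K16Q, whereas the series' design and the study give H4K16Q, and the latter was followed. The groups were named from the labels alone, since a substitution of 1 residue cannot be read from counts per gene.

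Lysine 16 of H4 lies in the tail of the histone, on the nucleosome surface that the heterochromatin protein Sir3 binds. Its acetylation by the SAS complex and its deacetylation by Sir2 set where Sir proteins can spread at telomeres and at the silent mating loci. Glutamine resembles acetylated lysine in lacking the positive charge, and H4K16Q is widely used as a mimic of the acetylated state.

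The H4K16Q libraries held 10529401 and 8645533 counts and the WT H4 libraries 4296089 and 1196115, so that 3 counts, which is as much as a count of 0 can hide, came to 0.216 and 0.444 CPM (counts scaled to the library size) in the mutant and to 0.651 and 1.95 CPM in WT H4. These limits cover counting error only. The WT H4 libraries stood apart from each other. Features overlapping ribosomal RNA genes took 0.990% of the counts of the first and 21.2% of those of the second, against 0.254% and 0.180% in H4K16Q, and YGL088W, a feature in which a snoRNA gene lies, took 22.9% and 1.14% in WT H4 against 1.39% and 3.55% in H4K16Q. Spearman's rank correlation over 5669 genes was 0.885 between the mutant replicates and 0.593 between the WT H4 replicates, and 28.3% and 50.1% of genes differed more than 2-fold between the replicates of H4K16Q and WT H4. The 6 markers of cells that have used up their glucose (HXT5, HXK1, HSP12, HSP26, SPI1 and GPH1) summed to 19005 and 9969 CPM in H4K16Q and to 29501 and 1462 CPM in WT H4, and all 6 overlapped between the groups. The 4 markers of growth on high glucose (HXT1, HXT3, HXK2 and RPL3) summed to 5205 and 8233 CPM against 968 and 3218 CPM. HXT1 and RPL3 were higher in both mutant libraries, and HXT3 and HXK2 overlapped. RPL3, a ribosomal protein gene, made up 2863 and 6034 CPM of the sums in H4K16Q and 584 and 1485 CPM in WT H4. The part that growth state and RNA composition take in the differences below was not tested. In bulk RNA, fewer cells of a kind and less RNA per cell cannot be told apart.

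The genes of the genotype were read first. LEU2 and TRP1 had no count in any of the 4 libraries, LYS2 had at most 3 and MET15 at most 1. HHT1 and HHF1 had reads in all 4 libraries although the genotype replaces the pair, with HHF1 at 860 and 1286 counts in H4K16Q and 202 and 22 counts in WT H4, while HHF2 had 0 to 4 counts. The 2 H4 genes are near-identical in sequence, so the counts may not separate them. The 7 markers of MATa cells were all lower in both mutant libraries, with a sum of 123 and 33.4 CPM against 455 and 1038 CPM, and the 4 markers of MATalpha cells summed to 35.9 and 37.7 CPM against 55.3 and 38.9 CPM. One of the 4 was higher in both mutant libraries, MF(ALPHA)2, an alpha-factor gene, at 6.69 and 5.62 CPM against 0.434 and 0 CPM, and 1 was lower in both, SAG1, the alpha-agglutinin gene, at 23.9 and 21.2 CPM against 41.4 and 35.01 CPM. The other 2 overlapped. Mating-type genes, ribosomal genes and respiration genes are otherwise left aside below.

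With edgeR (quasi-likelihood test, p-values adjusted over 5669 genes by Benjamini-Hochberg), no gene was called (0% in either direction). The adjusted p of every gene was 0.997 or above in this edgeR fit. Without the second WT H4 library, edgeR called 45 genes higher and 13 lower, with the spread of the lone WT H4 library taken from the other groups. Without adjustment, 63 genes (1.11%) were higher and 148 (2.61%) lower at p under 0.05. DESeq2's Wald test called 2 genes higher (0.0353%), YFL067W and LYS1, and 13 lower (0.229%), among which NDJ1, BRN1 and SPS2 are described below. Of those 13, 6 were features inside the ribosomal DNA and 3 were in the mating-type, ribosome or respiration lists. The smallest adjusted p of the Wald test, 0.000884, belonged to YHR054C and the ribosomal DNA feature YLR154C-G. YHR054C, named after its value was seen, had a log2 fold change of -5.34 in that test. With 2 libraries against 2, the exact two-sided permutation test of a single gene cannot go below 0.333. The genes are therefore described by whether the groups overlapped. Both H4K16Q libraries lay above both WT H4 libraries at 714 genes (12.6% of those tested) and below both at 1038 (18.3%). Were the 4 libraries interchangeable, a share of about 0.333 of genes would separate in either direction. The 2 shares together do not exceed it, so separation alone does not mark a gene as changed. With a gap between the nearest libraries of at least 1 on the log2 scale, 67 genes were higher (1.18%) and 149 lower (2.63%). The higher genes made up 40.8% of the genes without overlap, a share that moved to 53.6% when ribosomal RNA features and YGL088W were removed before scaling and to 26.2% with scaling by total counts. Outside the mating-type, ribosome and respiration genes, near-identical gene copies and genes under a mean of 10 CPM, 4480 genes were left, of which 506 (11.3%) were higher and 803 (17.9%) lower. The higher genes had a median length of 1129.5 bp and the lower genes 1650 bp, against 1368 bp for all 4480. They also differed in level, with a median over the 4 libraries of 86.4 CPM for the higher and 34.5 CPM for the lower genes, against 51.5 CPM.

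Among these 4480 genes, the 12 higher and the 12 lower genes with the widest gap between groups are given first. Since the gap chose them, their differences are a description. None has an adjusted p below 0.997 in edgeR's test. The higher genes held several enzymes of amino acid synthesis, and the lower genes held proteins of meiosis and of chromosome condensation.

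**Figure D1:**
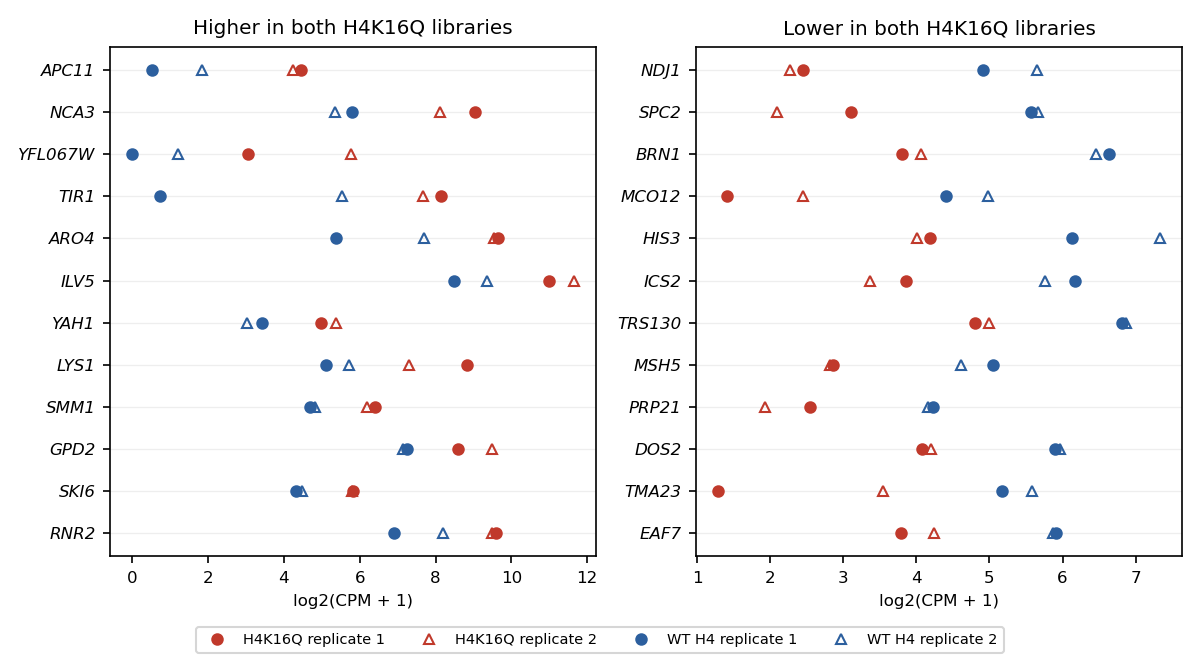
Level of the 24 genes with the widest gap between H4K16Q (red) and WT H4 (blue), as log2(CPM + 1) in each of the 4 libraries, with circles for replicate 1 and triangles for replicate 2. In each row the red symbols lie on 1 side of the blue ones, since the genes were chosen that way, and TIR1 shows the widest spread between the WT H4 libraries.

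APC11, the RING subunit of the anaphase-promoting complex, had the widest gap, at 20.9 and 18.05 CPM in H4K16Q and 0.434 and 2.59 CPM in WT H4. Its log2 fold change was 3.93 ± 1.08 (SE), with the lower WT H4 value under the limit of 3 counts. NCA3, a mitochondrial protein of the SUN family, was at 523 and 278 CPM in H4K16Q and 54.7 and 39.6 CPM in WT H4, a log2 fold change of 3.08 ± 0.92. The gaps between the H4K16Q and WT H4 libraries were 2.61 and 2.34 on the log2 scale, but the single library of WT H3 lay at the mutant level for APC11. YFL067W, an uncharacterised gene whose start lies 0.835 kb from a chromosome end, was at 7.26 and 53.1 CPM in H4K16Q and 0 and 1.30 CPM in WT H4. Its WT H4 values lie at or under the limit of 3 counts, so no fold is given. TIR1, a cell wall mannoprotein of cold and low oxygen, was at 283 and 204 CPM in H4K16Q and 0.651 and 45.4 CPM in WT H4, with one WT H4 library at its counting limit and the other not.

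Of the 12, 3 make amino acids. ARO4, which catalyses the first step of aromatic amino acid synthesis, stood at 801 and 748 CPM in H4K16Q and 40.8 and 206 CPM in WT H4, a log2 fold change of 2.65 ± 1.04. ILV5, an enzyme of branched-chain synthesis that also stabilises mitochondrial DNA, stood at 2049 and 3229.6 CPM in H4K16Q and 357 and 659 CPM in WT H4, 2.38 ± 1.18 on the log2 scale. LYS1, the last enzyme of lysine synthesis, stood at 457 and 155 CPM in H4K16Q and 33.4 and 51.9 CPM in WT H4, 2.85 ± 0.77 on the log2 scale. Neither group of libraries overlapped the other at these genes, and at ARO4 the WT H4 libraries differed more than the mutant ones. YAH1, the mitochondrial ferredoxin of iron-sulfur cluster assembly, was at 30.4 and 40.5 CPM in H4K16Q and 9.76 and 7.13 CPM in WT H4. GPD2, a glycerol 3-phosphate dehydrogenase, was at 388 and 718 CPM in H4K16Q and 152 and 141 CPM in WT H4. Neither gene overlapped between groups, and in both the WT H4 libraries lay close together. The tRNA dihydrouridine synthase SMM1 was at 83.3 and 72.2 CPM in H4K16Q and 24.7 and 27.2 CPM in WT H4. SKI6, a subunit of the RNA exosome, was at 55.5 and 54.4 CPM in H4K16Q and 19.1 and 21.4 CPM in WT H4. RNR2, the small subunit of ribonucleotide reductase, was at 768 and 718 CPM in H4K16Q and 119 and 294 CPM in WT H4 and closed the 12 with a gap of 1.29. The next gene, HIS2, a histidine enzyme, had a gap of 1.25.

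NDJ1, which ties telomeres to the nuclear envelope in meiosis, led the lower genes at 4.46 and 3.85 CPM in H4K16Q and 29.1 and 49.3 CPM in WT H4. Its log2 fold change was -3.22 ± 0.73 (SE). BRN1, the kleisin of the condensin complex, was at 12.9 and 15.7 CPM in H4K16Q and 98.2 and 86.9 CPM in WT H4, -2.69 ± 0.61 on the log2 scale. In both genes the replicates of each strain lay within 2-fold of each other. SPC2, a subunit of signal peptidase, was at 7.62 and 3.25 CPM in H4K16Q and 46.4 and 49.9 CPM in WT H4. MSH5, which promotes meiotic crossing over, was at 6.26 and 6.06 CPM in H4K16Q and 32.1 and 23.3 CPM in WT H4. EAF7, a subunit of the H4 acetyltransferase NuA4, was at 12.8 and 17.9 CPM in H4K16Q and 59.4 and 57.7 CPM in WT H4. The WT H4 libraries lay within 2-fold of each other at all 3. TRS130, of the TRAPPII complex of Golgi traffic, was at 26.8 and 30.8 CPM in H4K16Q and 111 and 115 CPM in WT H4. PRP21, a splicing factor of the SF3a complex, was at 4.82 and 2.81 CPM in H4K16Q and 17.8 and 16.9 CPM in WT H4. The others were ICS2, DOS2, TMA23 and MCO12, with log2 fold changes of -2.45, -1.85, -2.77 and -3.06.

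HIS3 was the remaining lower gene, at 17.2 and 15.1 CPM in H4K16Q and 68.96 and 160.2 CPM in WT H4. In this background HIS3 is read from the promoter of the a-factor gene MFA1, and MFA1 itself was at 4.60 and 0.592 CPM in H4K16Q and 12.8 and 27.9 CPM in WT H4. Both lay lower in both mutant libraries, and by the genotype the HIS3 reads come from this construct. The last of the 12 lower genes, EAF7, had a gap of 1.67 and the next, SEN34, a gap of 1.65.

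The same genes were looked up in WT H3, a single library of the WT strain labelled H3, which the choice did not use. The choice takes genes with both mutant values at an extreme. By that alone, another library falls on the WT H4 side more often than at all genes, so the shares are a description. WT H3 lay on the WT H4 side of both mutant libraries at 373 of the 506 higher genes (73.7%) and 601 of the 803 lower genes (74.8%), against 32.1% and 33.8% of all 4480 genes. Of the 12 higher and 12 lower genes, 10 and 12 did so. The exceptions were APC11 and YFL067W. With all 8 libraries scaled together, WT H3 had 18.3 CPM of APC11, between the 20.9 and 18.1 CPM of the mutant libraries, and 27.4 CPM of YFL067W, between 7.27 and 53.2 CPM. WT H3 resembles the second WT H4 library (Spearman's rank correlation 0.955 over 5669 genes), so these libraries are not separate evidence. Both libraries of H4H18A, another mutant of the Sir3-binding surface, lay towards the H4K16Q side at 31.0% of the higher and 34.5% of the lower genes, against 23.8% and 23.9% of all. That side was set by the midpoint of the H4K16Q and WT H4 means, from the libraries that chose the genes. The 2 H4H18A libraries were shallow, with 621770 and 852659 counts, of which ribosomal RNA features took 16.3% and 33.6%. In them 3 counts came to 7.08 and 3.44 CPM.

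Of 47 gene lists, 19 had a median on the same side of that of all genes in each of the 4 mutant to WT H4 library pairs, 17 above it and 2 below. The 4 pairs share 4 libraries and are not independent. Were the libraries interchangeable, a share of about 0.333 of lists would also meet this rule. The rule therefore only picks which lists are described, and the same libraries give the counts below. No list was tested as a set. Each is given by its members without overlap, to be read beside the 12.6% higher and 18.3% lower among all genes tested, and by its median log2 fold change, beside -0.10 for all genes.

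**Figure D2:**
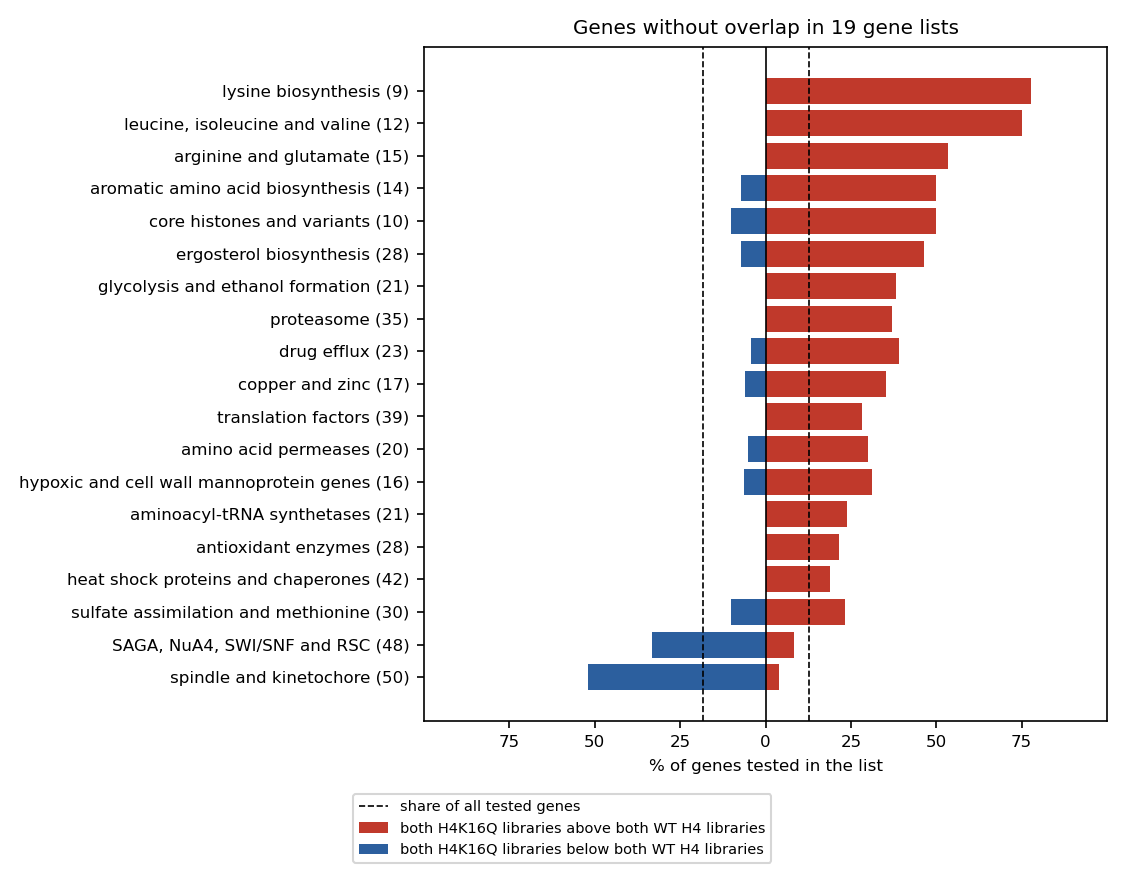
Share of tested genes without overlap in the 19 lists, with members higher in both H4K16Q libraries to the right (red) and lower to the left (blue), as percent of the members tested (number in parentheses). Dashed lines mark the 12.6% and 18.3% of all tested genes, and lysine synthesis reaches 77.8% to the right and spindle and kinetochore 52.0% to the left.

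Amino acid synthesis held the 3 largest shares of higher genes among these lists. In leucine, isoleucine and valine synthesis 9 of 12 genes were higher and 0 lower, with a median of 1.79, and in lysine synthesis 7 of 9 were higher and 0 lower, with a median of 1.38. Arginine and glutamate synthesis had 8 of 15 higher and 0 lower (median 0.95) and aromatic synthesis 7 of 14 higher and 1 lower (median 0.96). With scaling by total counts, under which 7.06% of all genes were higher, the number was 6 of 12 in branched-chain, 5 of 9 in lysine, 4 of 14 in aromatic and 1 of 15 in arginine and glutamate synthesis. The sizes differed with the control library. The arginine and glutamate median was 0.45 without the first WT H4 library and 2.34 without the second, and the lysine median 0.78 and 1.96. The median of the branched-chain list was 2.88 and 2.62 against the first WT H4 library and 1.27 and 0.86 against the second, and that of the aromatic list was 3.08 and 2.62 against the first and 0.55 and -0.01 against the second.

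In the branched-chain pathway, ILV2, the acetolactate synthase, was at 1193 and 916 CPM in H4K16Q and 131 and 401 CPM in WT H4. ILV6, its regulatory subunit, was at 891 and 1417 CPM in H4K16Q and 233 and 471 CPM in WT H4. LEU9, an isopropylmalate synthase, was at 182 and 232 CPM in H4K16Q and 21.5 and 93.4 CPM in WT H4. All 3 were separated from WT H4, whose 2 libraries differed more than 2-fold. BAT2, the cytosolic branched-chain aminotransferase, overlapped, at 236 and 354 CPM in H4K16Q and 909 and 204 CPM in WT H4. In lysine synthesis, LYS4, the homoaconitase, was at 234 and 322 CPM in H4K16Q and 59.6 and 152 CPM in WT H4. The homocitrate synthases LYS20 and LYS21, which share near-identical sequence, were also higher, while LYS5 overlapped, with a log2 fold change of -1.34 ± 0.84.

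ARG1, the argininosuccinate synthetase, was at 2950.2 and 3336 CPM in H4K16Q and 89.8 and 1277 CPM in WT H4. ARG7, the mitochondrial ornithine acetyltransferase, was at 435 and 143 CPM in H4K16Q and 28.2 and 93.4 CPM in WT H4. CPA1, the small subunit of carbamoyl phosphate synthetase, was at 673 and 500.1 CPM in H4K16Q and 51.2 and 320.3 CPM in WT H4. The first WT H4 library had the lowest value of each of these genes. ARO3, the other first-step enzyme of the aromatic pathway, was at 1056 and 557 CPM in H4K16Q and 97.2 and 295 CPM in WT H4. ARO2, the chorismate synthase, was at 503 and 677 CPM in H4K16Q and 39.5 and 298 CPM in WT H4. The single lower gene of this list, TYR1, was at 50.1 and 23.1 CPM in H4K16Q and 53.3 and 51.9 CPM in WT H4, a separation of 0.05 on the log2 scale. In sulfate assimilation and methionine synthesis 7 of 30 were higher and 3 lower (median 0.43), but 2 and 2 with scaling by total counts. HOM2, which also serves threonine synthesis, was at 549 and 949 CPM in H4K16Q and 74.2 and 442 CPM in WT H4. MET32, a zinc-finger activator of the sulfur genes, was opposite, at 2.16 and 1.48 CPM in H4K16Q and 26.9 and 5.84 CPM in WT H4.

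Genes that use or import amino acids were looked at beside those that make them. All 21 aminoacyl-tRNA synthetases had a fitted change above 0, but 5 were without overlap, and the list median was 3.29 and 3.15 against the first WT H4 library and 0.08 and 0.09 against the second. KRS1, the lysyl-tRNA synthetase, was at 1206 and 953 CPM in H4K16Q and 67.9 and 632 CPM in WT H4, which shows the same gap between the WT H4 libraries. Of 39 translation factors 11 were higher and 0 lower, with medians of 1.92 and 2.11 against the first WT H4 library and 0.00 and 0.22 against the second. Both lists also moved with the scaling, to 1 of 21 and 9 of 39 higher with total counts. Among 20 amino acid permeases 6 were higher and 1 lower (median 0.32), with medians of 0.62 and -0.03 against the first WT H4 library and 0.73 and 0.68 against the second. AGP1, a general permease, was at 773 and 607 CPM in H4K16Q and 310.1 and 129.7 CPM in WT H4. BAP3, a branched-chain permease, was at 364 and 389.9 CPM in H4K16Q and 103 and 224 CPM in WT H4. SSY1, the sensor of external amino acids that controls both, was lower, at 28.9 and 28.7 CPM in H4K16Q and 85.4 and 35.01 CPM in WT H4.

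Sequence was read from the 300 bases upstream of each start codon in the R64 genome. The TGACTC core of the Gcn4 site, bound by the activator of amino acid synthesis genes, was found on either strand in 84 of 506 higher genes (16.6%), 39 of 803 lower genes (4.86%) and 8.55% of the 4480, against 7.86% of all 5916 promoters read. In the 9 lists of amino acid synthesis, transport and tRNA charging it was in 29 of 54 higher genes (53.7%) and 44.8% of all 143 genes, and outside them in 55 of 452 higher genes (12.2%), 4.65% of lower genes and 7.36% of all. Of the 12 higher and 12 lower genes with the widest gaps, 4 and 2 held it. The windows below show it in the named genes ILV5, LYS1, YAH1, ARG1 and ILV6, which were picked because they hold a match. They are written 5′ to 3′ on the gene's strand, with the core or its reverse complement GAGTCA in capitals. They show that the match lies 134 to 274 bases upstream of the start codon and that LYS1 has 2.
ILV5: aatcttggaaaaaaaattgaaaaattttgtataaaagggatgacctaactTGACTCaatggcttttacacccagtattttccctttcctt
LYS1: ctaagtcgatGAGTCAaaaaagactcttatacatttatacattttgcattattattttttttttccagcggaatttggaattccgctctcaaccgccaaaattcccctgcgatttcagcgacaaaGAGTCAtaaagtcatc
YAH1: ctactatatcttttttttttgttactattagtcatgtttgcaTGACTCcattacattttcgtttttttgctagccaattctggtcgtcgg
ARG1: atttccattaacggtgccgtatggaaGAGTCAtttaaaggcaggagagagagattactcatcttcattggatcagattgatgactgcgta
ILV6: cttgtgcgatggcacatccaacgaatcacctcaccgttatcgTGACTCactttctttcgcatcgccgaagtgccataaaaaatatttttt
The windows are, in R64 coordinates, chrXII:839354-839443 (minus strand) for ILV5, chrIX:420855-420995 (minus strand) for LYS1, chrXVI:74051-74140 (minus strand) for YAH1, chrXV:218911-219000 (plus strand) for ARG1 and chrIII:105651-105740 (minus strand) for ILV6. A match is a description of letters and was not tested for binding.

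Motifs of genes expressed at the start of the cell cycle showed the opposite order. The MCB motif ACGCGT was in 7.35% of the lower and 2.37% of the higher genes, against 4.0% of the 4480, and the SCB motif CGCGAAA in 6.97% and 2.17%, against 4.46%. The stress element AGGGG was in 14.1% of lower and 20.4% of higher genes, against 23.7%, and RRPE, AAAAATTT, a motif of ribosome biogenesis promoters, in 10.2% and 19.8%, against 14.3%. For PAC, GATGAG, the shares were 14.6%, 19.4% and 17.0%, and for the Hap motif CCAAT 42.1%, 37.7% and 41.7%. Rap1 motifs of 13 letters were found in 2 of the 4480 promoters and are not compared. Of the 12 lower genes with the widest gaps, 2 held SCB and 0 held MCB. The windows below show the SCB match of BRN1, MSH5 and CSE4, all lower in H4K16Q, and the MCB match of SPC110, in capitals. These genes were picked because they hold a match.
BRN1: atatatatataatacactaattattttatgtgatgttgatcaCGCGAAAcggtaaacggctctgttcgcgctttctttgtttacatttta
MSH5: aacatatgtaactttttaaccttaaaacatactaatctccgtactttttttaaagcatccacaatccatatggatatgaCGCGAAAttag
CSE4: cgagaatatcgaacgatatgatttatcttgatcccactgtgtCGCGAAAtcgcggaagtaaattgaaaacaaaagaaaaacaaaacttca
SPC110: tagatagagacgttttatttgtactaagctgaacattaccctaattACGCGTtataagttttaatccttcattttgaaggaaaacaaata
Their R64 positions are chrII:40607-40696 (plus strand) for BRN1, chrIV:178144-178233 (plus strand) for MSH5, chrXI:346880-346969 (minus strand) for CSE4 and chrIV:1185917-1186006 (plus strand) for SPC110.

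**Figure D3:**
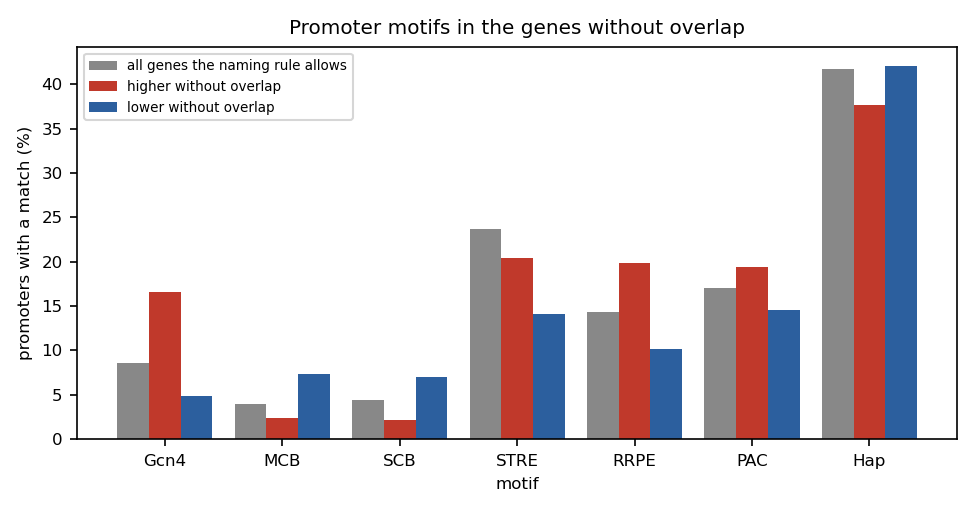
Share of promoters (300 bases upstream of the start codon) that hold each of 7 motifs on either strand, for the 4480 genes the naming rule allows (grey), the 506 higher genes (red) and the 803 lower genes (blue). The Gcn4 core reaches 16.6% in the higher genes and 4.86% in the lower genes, whereas MCB and SCB are more frequent in the lower genes.

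Spindle and kinetochore genes were the list with the largest lower share. The spindle separates chromosomes, and the kinetochore ties each centromere to it. Of 50 members 26 were lower (52.0%) and 2 higher, with a median of -0.75, and the 4 pairs of libraries gave -0.64, -0.51, -0.71 and -0.74, so both control libraries placed the list at a like distance. The fitted median was -0.48 without the second WT H4 library. KAR3, a minus-end kinesin, was at 11.5 and 9.17 CPM in H4K16Q and 52.9 and 35.01 CPM in WT H4. SPC110, which links the spindle pole body to the tubulin ring complex, was at 31.6 and 24.998 CPM in H4K16Q and 83.9 and 84.3 CPM in WT H4. MTW1, of the kinetochore, was at 4.75 and 3.11 CPM in H4K16Q and 13.2 and 12.97 CPM in WT H4. The replicates of each strain were close in these genes. DAD3, of the DASH ring, was at 6.26 and 2.66 CPM in H4K16Q and 19.3 and 18.2 CPM in WT H4. Its partners DAD1 and DAD4 were the 2 higher members, with log2 fold changes of 0.63 ± 1.09 and 0.72 ± 0.85. NDC80 overlapped at 34.8 and 20.7 CPM in H4K16Q and 85.2 and 34.4 CPM in WT H4, and TUB2, the beta-tubulin, overlapped at 205 and 824 CPM in H4K16Q and 143 and 325 CPM in WT H4. Further lower members, chosen after their values were seen, were the tubulin complex subunit SPC97 (-1.56), the spindle pole protein SPC42 (-1.44), the kinesin KIP1 (-1.46) and the checkpoint kinase BUB1 (-1.69), given as log2 fold changes.

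**Figure D4:**
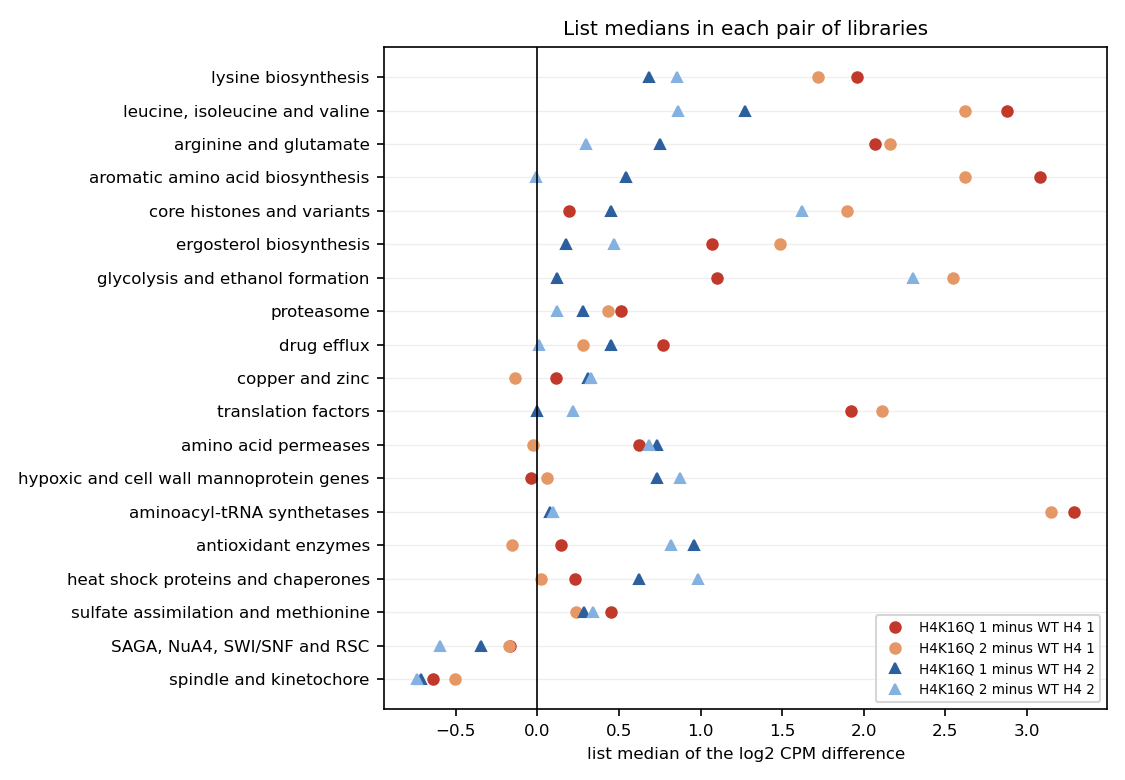
Median log2 CPM difference of each of the 19 lists in the 4 pairs of an H4K16Q and a WT H4 library (circles against WT H4 replicate 1, triangles against replicate 2). The 4 values of spindle and kinetochore lie between -0.74 and -0.51, whereas those of the aminoacyl-tRNA synthetases lie near 0 against replicate 2 and above 3 against replicate 1.

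Chromatin complexes that acetylate or remodel nucleosomes (SAGA, NuA4, SWI/SNF and RSC) had 16 of 48 members lower and 4 higher (median -0.28). RSC30, a DNA-binding subunit of RSC, was at 24.1 and 15.2 CPM in H4K16Q and 49.4 and 53.2 CPM in WT H4. UBP8, which removes ubiquitin from H2B, was at 15.1 and 5.18 CPM in H4K16Q and 30.4 and 25.3 CPM in WT H4. LDB7 and RSC9, 2 RSC subunits, were higher, with log2 fold changes of 0.99 ± 0.59 and 0.95 ± 0.61. Without the second WT H4 library the list median was -0.01. The genes of H4K16 acetylation and silencing themselves did not share a direction in all pairs, with 6 of 28 lower and 2 higher (median -0.18). Chosen after their values were seen, the acetyltransferase SAS2 was at 12.01 and 9.47 CPM in H4K16Q and 20.8 and 13.6 CPM in WT H4 and its partner SAS5 at 45.7 and 29.9 CPM in H4K16Q and 21.04 and 13.6 CPM in WT H4, on opposite sides of WT H4. SIR2, the deacetylase, overlapped at 24.5 and 23.5 CPM in H4K16Q and 29.5 and 9.73 CPM in WT H4, and SIR3 overlapped at 51.4 and 32.2 CPM in H4K16Q and 46.4 and 46.7 CPM in WT H4. YKU70, a Ku subunit that binds telomeres, was lower, at 9.21 and 9.76 CPM in H4K16Q and 38.6 and 22.05 CPM in WT H4, and so was the H3K79 methyltransferase DOT1, at 18.8 and 16.6 CPM in H4K16Q and 38.6 and 37.6 CPM in WT H4.

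Of 10 core histone and variant genes 5 were higher, 1 was lower and 4 overlapped (median 1.33). The median was 0.42 without the second mutant library, and the 4 pairs gave 0.19 and 1.90 against the first WT H4 library and 0.45 and 1.62 against the second, so its size differed with the mutant library. HTA2, an H2A gene, was at 169 and 287 CPM in H4K16Q and 18.7 and 73.9 CPM in WT H4, and HTA1, the other, at 424 and 952 CPM in H4K16Q and 224 and 237 CPM in WT H4. HTB2, an H2B gene, was at 303 and 506 CPM in H4K16Q and 60.7 and 281 CPM in WT H4. The higher genes also included HHF1, at 61.9 and 190 CPM in H4K16Q and 43.8 and 14.3 CPM in WT H4. The counts and the median include HHF1, HHT1 and HHT2, whose loci the genotype replaces, and where their reads come from was not tested. The lower member was CSE4, the centromeric H3 variant, at 15.03 and 9.61 CPM in H4K16Q and 20.2 and 24.6 CPM in WT H4. HHT1 and HHT2, the H3 genes, overlapped at 93.7 and 682 CPM in H4K16Q and 159 and 57.1 CPM in WT H4 and at 17.9 and 316 CPM in H4K16Q and 96.3 and 28.5 CPM in WT H4. In both the second mutant library was the highest.

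Meiosis and DNA replication lists fell outside the 19 since the 4 pairs disagreed. Of 50 meiosis and sporulation genes 16 were lower and 0 higher, with a median of -1.09, but the pair medians were -1.75 and -1.70 against the first WT H4 library and 0.12 and 0.17 against the second. Chosen after their values were seen, SPS2, a spore wall gene, was at 0.575 and 1.48 CPM in H4K16Q and 49.2 and 5.19 CPM in WT H4 and SPO20, a SNARE of the prospore membrane, at 2.30 and 4.44 CPM in H4K16Q and 29.1 and 13.6 CPM in WT H4. Of 58 DNA replication genes 16 were lower and 6 higher. The large subunit of the chromatin assembly factor CAF-1, RLF2, was at 27.4 and 25.1 CPM in H4K16Q and 87.4 and 69.4 CPM in WT H4 and the histone chaperone ASF1 at 9.57 and 34.6 CPM in H4K16Q and 73.3 and 131 CPM in WT H4, both again chosen after their values were seen, while RNR2 and RNR4, the small ribonucleotide reductase subunits, were higher, RNR4 at 736 and 1542 CPM in H4K16Q and 435 and 523 CPM in WT H4.

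Metabolic and protein turnover lists made up most of the rest. Ergosterol synthesis, which makes the yeast membrane sterol, had 13 of 28 genes higher and 2 lower (median 0.82). ERG11, the lanosterol demethylase, was at 807 and 549.7 CPM in H4K16Q and 58.1 and 376 CPM in WT H4. ERG1, the squalene epoxidase, was at 594 and 458 CPM in H4K16Q and 67.7 and 298 CPM in WT H4. Both were lowest by far in the first WT H4 library, and the list median was 0.38 without that library and 1.59 without the second. The number of higher ergosterol genes was 3 of 28 with scaling by total counts. The proteasome had 13 of 35 higher and 0 lower (median 0.35 over all 35). PRE7, a core subunit, was at 114 and 155 CPM in H4K16Q and 83.9 and 47.98 CPM in WT H4, a log2 fold change of 1.02 ± 0.64. PUP1, a catalytic core subunit, was at 71.8 and 112 CPM in H4K16Q and 49.4 and 44.1 CPM in WT H4. RPN4, the activator of proteasome genes, overlapped at 302 and 69.4 CPM in H4K16Q and 120.1 and 105 CPM in WT H4. The number of higher proteasome genes was 2 of 35 with scaling by total counts.

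Glycolysis and ethanol formation had 8 of 21 higher and 0 lower, with a median of 1.67. With WT H3 added to the control 3 of 21 were higher, and without the second mutant library the median was 0.29. PGK1, the phosphoglycerate kinase, was at 2865 and 14185 CPM in H4K16Q and 2213 and 1937 CPM in WT H4. PDC1, the main pyruvate decarboxylase, was at 13508 and 49852 CPM in H4K16Q and 2979 and 10350.0 CPM in WT H4. TPI1, the triose phosphate isomerase, was at 1264 and 4332 CPM in H4K16Q and 484 and 755 CPM in WT H4. The second mutant library was the highest at all 3, and the list median was 0.12 for the first mutant library against the second WT H4 library and 2.30 for the second. Among 42 heat shock proteins and chaperones 8 were higher and 0 lower (median 0.42), and among 28 antioxidant enzymes 6 were higher and 0 lower (median 0.28). With scaling by total counts 0 antioxidant genes were higher and 1 lower. Without the first WT H4 library the heat shock and antioxidant medians were 0.87 and 1.17, and without the second 0.28 and 0.04. YDJ1, an Hsp40 co-chaperone, was at 252 and 267 CPM in H4K16Q and 112 and 142 CPM in WT H4. GRX4, a glutaredoxin of iron sensing, was at 38.6 and 32.5 CPM in H4K16Q and 12.8 and 22.05 CPM in WT H4. CTT1, the cytosolic catalase, overlapped widely, at 1536 and 455 CPM in H4K16Q and 497 and 22.05 CPM in WT H4.

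Of 23 drug efflux genes 9 were higher and 1 lower (median 0.58), and with scaling by total counts 3 and 2. The median was 0.22 without the first mutant library and 0.25 without the first WT H4 library. The widest separations included polyamine transporters. TPO4 was at 377 and 325 CPM in H4K16Q and 180.0 and 115 CPM in WT H4 and TPO1 at 313 and 122 CPM in H4K16Q and 88.05 and 102 CPM in WT H4, and QDR1, a multidrug transporter, was the lower one, at 11.1 and 9.47 CPM in H4K16Q and 16.05 and 18.2 CPM in WT H4. Copper and zinc genes had 6 of 17 higher and 1 lower (2 and 2 with total counts), and hypoxic and mannoprotein genes 5 of 16 higher and 1 lower, with medians of 0.07 and 0.05 that turned to -0.05 and -0.18 with scaling by total counts. HEM13, an oxygen-dependent heme enzyme, was at 149 and 216 CPM in H4K16Q and 27.3 and 88.2 CPM in WT H4 and TIR3, a relative of TIR1, at 34.8 and 37.1 CPM in H4K16Q and 0 and 18.8 CPM in WT H4, both without overlap.

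Telomeric silencing by Sir proteins acts near chromosome ends, so genes were grouped by their distance to the nearest end. Of the 66 tested genes within 10 kb, 17 were higher (25.8%) and 3 lower (4.55%), with a median log2 fold change of 0.45. Further in, the shares were 14.9% higher and 14.9% lower of 94 genes at 10 to 20 kb, 11.9% and 15% of 420 at 20 to 50 kb, and 12.5% and 18.6% of 4979 beyond 50 kb. The bins also differed in level, with a median of 10.5 CPM within 10 kb and 48.7 CPM beyond 50 kb. Genes near the ends thus lay closer to the 3-count limit, 1.95 CPM in the second WT H4 library. The summed level of the 66 genes was 1519 and 2407 CPM in H4K16Q and 1213 and 1019 CPM in WT H4, without overlap. IMD2 alone gave 180.0 and 601 CPM of the sums in H4K16Q and 12.1 and 119 CPM in WT H4. The median difference of the 66 genes was -0.0007 and 0.31 against the first WT H4 library and 0.68 and 0.85 against the second. When WT H3 was also required to lie on the control side, 9 of the 66 remained higher (13.6%), against 9.35% of all genes. Without a filter on low counts, 35 of 112 were higher (31.2%), against 13.4% of all.

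**Figure D5:**
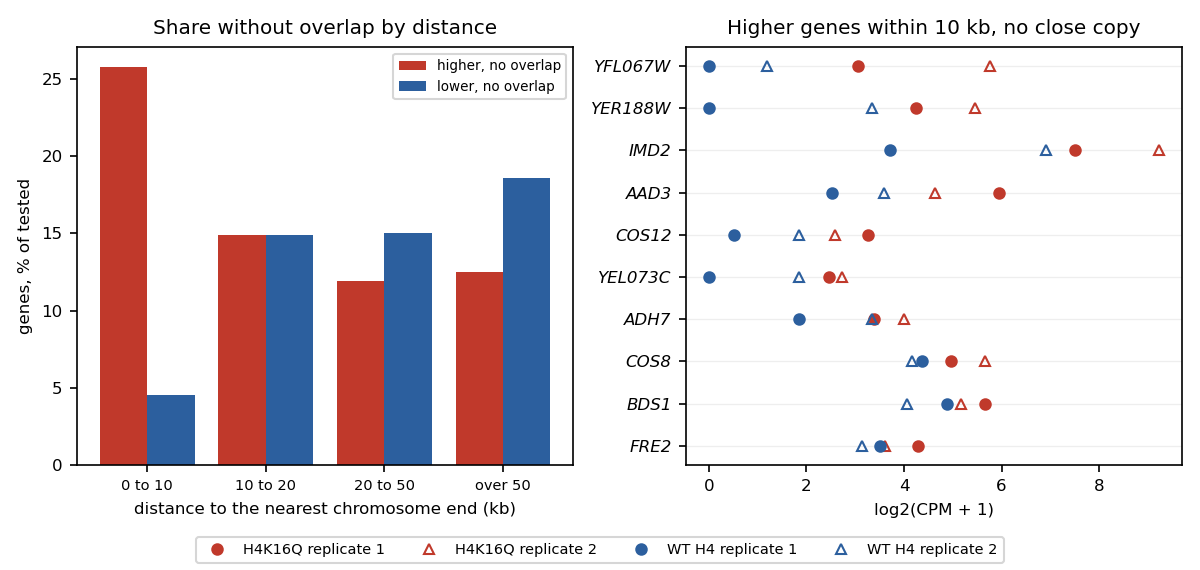
Left, percent of tested genes without overlap, higher (red) and lower (blue) in H4K16Q, by distance to the nearest chromosome end. Right, log2(CPM + 1) in each library for the 10 higher genes within 10 kb that have no near-identical copy, where 25.8% of genes are higher within 10 kb and ADH7 and FRE2 show the smallest separation.

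Near-identical copies, whose reads the counting could split, were held by 32 of the 66 genes and by 7 of the 17 higher ones, which leaves 10 of 34 genes without such a copy. They were named after their values were seen. With WT H3 added to the control, 4 of these 34 stayed higher, AAD3, YEL073C, FRE2 and BDS1. At the other 6 WT H3 reached or passed a mutant library, and in that scaling it had 194 CPM of IMD2, 18.2 CPM of YER188W, 41.6 CPM of COS8, 27.3 CPM of YFL067W, 9.10 CPM of COS12 and 13.002 CPM of ADH7. IMD2, an IMP dehydrogenase of guanine nucleotide synthesis, was at 180.0 and 601 CPM in H4K16Q and 12.1 and 119 CPM in WT H4. AAD3, an aryl alcohol dehydrogenase homologue, was at 60.6 and 23.8 CPM in H4K16Q and 4.77 and 11.02 CPM in WT H4. YER188W was at 17.98 and 42.6 CPM in H4K16Q and 0 and 9.08 CPM in WT H4. In each the WT H4 libraries lay below both mutant libraries, and in IMD2 and YER188W the first of them was far below the second. COS8, of a subtelomeric family of membrane proteins, was at 30.1 and 49.8 CPM in H4K16Q and 19.5 and 16.9 CPM in WT H4. BDS1, a sulfatase, was at 49.6 and 34.8 CPM in H4K16Q and 28.6 and 15.6 CPM in WT H4. FRE2, a ferric reductase, was at 18.6 and 11.2 CPM in H4K16Q and 10.4 and 7.78 CPM in WT H4, with a separation of 0.11 on the log2 scale. YFL067W, described above, COS12, YEL073C and ADH7 complete the 10. COS12 was at 8.56 and 5.03 CPM in H4K16Q and 0.434 and 2.59 CPM in WT H4 and YEL073C at 4.53 and 5.62 CPM in H4K16Q and 0 and 2.59 CPM in WT H4, with the first WT H4 value of each under the limit of 3 counts, so no fold is given. ADH7 had a log2 fold change of 1.14 ± 0.87. The 3 lower genes were COS3, YKR104W and MAL32, a maltase, the last at 3.96 and 4.44 CPM in H4K16Q and 17.1 and 5.19 CPM in WT H4.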

How the data were processed

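RNA-seq counts of the 8 libraries were read, and the comparison used 2 libraries of H4K16Q and 2 of WT H4. The authors prepared stranded total RNA libraries, used Trim Galore for trimming, STAR for mapping to R64 and featureCounts for counting. The deposited counts are whole numbers per gene for 6600 features, without normalization. Tool versions and the strand setting of the counting are not given in the sources used here, so reads of overlapping or antisense genes cannot be told apart. The authors also deposited edgeR tables with their own fold changes and p-values, which were not used.

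Of the 6600 features, 5917 (89.7%) matched the RefSeq annotation of R64. Genes were kept by filterByExpr (minimum count 10, minimum total 15), which left 5669, and libraries were scaled by TMM. One edgeR 4.0.16 fit in R 4.3.3 took the 6 libraries with H4 strain labels (H4K16Q, H4H18A, WT H4), with the quasi-likelihood test and a Benjamini-Hochberg threshold of 0.05. H4H18A entered the fit for the estimate of the spread, and it also took part in the filter and the TMM scaling. With the 4 libraries alone, 5880 genes passed the filter. Log2 CPM values used a prior count of 2. The script was tested on simulated counts. With the median spread of these libraries, the edgeR fit called 0 of 66 genes simulated to change by 1 on the log2 scale. It called 0 of 64 genes changed by 2 and 14 of 68 changed by 3, so 0 calls do not show that genes were unchanged. With a smaller simulated spread it called 43 of 64, 69 of 69 and 65 of 65, and 14 genes simulated without a change. The p-values of edgeR's test set the difference between groups against the spread between replicates. That spread was estimated from the 6 libraries of the fit, with information shared between genes.

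Members, gene lists and tests were chosen with earlier results of these data known. Genes were named by rule, as the 12 widest gaps between groups in each direction among protein-coding genes of at least 10 CPM outside the mating-type, ribosome and respiration lists and without a copy of at least 95% identity over 50% of the length, then up to 4 members without overlap in each direction and up to 2 with overlap in each list described, then the genotype genes and YGL088W. Values of 1 gene the rule takes are not reported here. Alternatives were DESeq2 1.42.0, RLE or total-count scaling, no filter, other sets of libraries, a block for the replicate number, a fit without YGL088W and ribosomal RNA features, a wider gap, another prior count, and leaving out each library.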

Additional observations from a re-analysis of the deposited data

How the results depend on the processing

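The count of genes called by edgeR stayed at 0 with RLE or total-count scaling, without the filter, with the 4 libraries alone, all 8 libraries, WT H3 added to the control, ribosomal RNA features and YGL088W removed, and the replicate block (smallest adjusted p 0.285 in edgeR's test). DESeq2's Wald test called 15 genes, 2 higher and 13 lower. Leaving out 1 library gave 0 to 58 called genes, 0 to 45 higher and 0 to 13 lower, and the 58 came without WT H4 replicate 2, with a lone WT H4 library assumed to vary like the other groups. The replicate numbers are not stated to pair the samples, and same-numbered deviations correlated at 0.133 for H4K16Q and WT H4, 0.432 for H4H18A and WT H4 and -0.0109 for H4K16Q and H4H18A. The replicate block moved the heat shock median from 0.42 to 0.78 and the antioxidant median from 0.28 to 0.66, and that of hypoxic genes from 0.05 to 0.22. The 714 higher and 1038 lower genes without overlap became 400 higher with total counts, and 246 and 411 with a gap of at least 0.5. Without 1 library the rule spans fewer pairs by construction, and gave 1466 to 1982 higher and 1661 to 2399 lower genes. The 17 higher genes within 10 kb of a chromosome end became 35 with no filter, 9 with WT H3 added and 27 to 35 without 1 library. Total counts moved the median log2 fold change over the whole table from -0.10 to -0.26. Of 116 genes followed, 3 changed sign. ERG12 was at 0.038 with ribosomal RNA features removed, 0.082 without H4K16Q replicate 1 and 0.13 without WT H4 replicate 2, CTR2 at -0.93 to 0.083 without 1 library, and ARP4 at -0.029 with total counts. Of 19 list medians, 2 changed sign, copper and zinc (-0.046 with total counts) and hypoxic and mannoprotein genes (-0.18 with total counts, -0.041 with WT H3 added). The causes were not tested. Depth limits genes below 1.95 CPM in the second WT H4 library.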

Other observations

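Other lists held single genes that stood apart, given as values and chosen after they were seen. Spliceosome genes had 12 of 51 lower and 6 higher. PRP3, a protein of the U4/U6 snRNP, was at 16.5 and 18.05 CPM in H4K16Q and 67.01 and 49.3 CPM in WT H4, whereas SMX2, the SmG protein, was at 13.5 and 14.6 CPM in H4K16Q and 0.434 and 5.19 CPM in WT H4. Among cyclins and Cdk regulators 6 of 22 were lower and 1 higher. The S-phase cyclin CLB6 was at 1.80 and 5.92 CPM in H4K16Q and 41.2 and 12.3 CPM in WT H4 and the kinase CDC28 itself at 20.1 and 26.8 CPM in H4K16Q and 4.77 and 13.6 CPM in WT H4. Neither gene overlapped between the groups.

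Of 41 cell wall assembly genes 6 were higher and 2 lower. PIR3, a heat shock-induced wall glycoprotein, was at 968 and 213 CPM in H4K16Q and 132 and 11.7 CPM in WT H4, with large differences between the replicates of each strain. CWP1, a mannoprotein of the birth scar, was at 160.3 and 163 CPM in H4K16Q and 35.3 and 88.2 CPM in WT H4. Among autophagy genes 5 of 35 were lower and 1 higher. ATG38, of the PI3-kinase complex, was at 2.80 and 3.55 CPM in H4K16Q and 13.7 and 12.97 CPM in WT H4, and ATG41, which acts in Atg9 vesicle formation, was higher, at 186 and 111 CPM in H4K16Q and 38.8 and 50.6 CPM in WT H4. In the histidine pathway 2 of 7 genes were higher and 2 lower, with HIS4 at 2462 and 2827 CPM in H4K16Q and 116 and 1047 CPM in WT H4 and HIS6 at 6.90 and 8.28 CPM in H4K16Q and 47.1 and 22.05 CPM in WT H4.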
